A study of Drosophila melanogaster with 2 samples.

Results

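The 10 genes described here encode peptide hormones made by the enteroendocrine cells of the fly gut: Tk, NPF, Dh31, Nplp2, AstA, AstC, Mip, Orcokinin, CCHa1 and CCHa2. They were taken from the deposited transcript table by a fixed list of names, with the older symbols Ast, Ast-C and npf for AstA, AstC and NPF, and by gene ID for CCHa1 (CG14358), CCHa2 (CG14375) and Orcokinin (CG13565). All 10 were found among 13816 named loci, each represented by its most-read transcript, and all 10 passed the filter on low counts that left 8137 genes. The RNA came from posterior midguts of wild-type Oregon R females, pooled before extraction, at 45 days and at 5 days of age, raised at 25 degrees Celsius, with 3 biological replicates per age. The 6 deposited count columns are named treatment and control, 3 each, and nothing in the sources used here states which name stands for which age. All differences below are therefore treatment relative to control.

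Enteroendocrine cells are scattered secretory cells of the midgut epithelium that descend from the intestinal stem cells and are marked by the transcription factor Prospero. Each makes a few peptides, cut from larger precursors in the secretory pathway and released into the circulation or onto neighbouring cells, and separate cell populations make the allatostatins and the tachykinins. The peptides act through G protein-coupled receptors on enterocytes, visceral muscle, neurons and distant endocrine cells, and are known for roles in gut movement, lipid metabolism and feeding. Neurons make most of the same peptides.

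Libraries held 9581965 to 18001958 reads over genes, of which the 10 genes took 3751 to 8125. Nplp2 and Orcokinin had the fewest reads, 17 to 51 and 18 to 38 per library. Levels are given as reads scaled to a common library size by TMM (CPM) within a gene, and as the same value per kilobase of transcript (RPKM) between genes, as mean ± SD over 3 libraries.

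Transcripts of 6 of the 10 genes fell in treatment: Tk, Dh31, Mip, AstA, AstC and CCHa2 (edgeR's quasi-likelihood test, adjusted p under 0.05). The others, NPF, Nplp2, Orcokinin and CCHa1, did not pass, and 0 of the 10 rose. Of all genes tested, 49.2% changed, 24.1% falling and 25.0% rising. The median log2 fold change was -0.34 over the 10 genes and 0.01 over all genes tested. In bulk RNA, fewer cells of a type and less RNA per cell cannot be told apart.

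**Figure D1:**
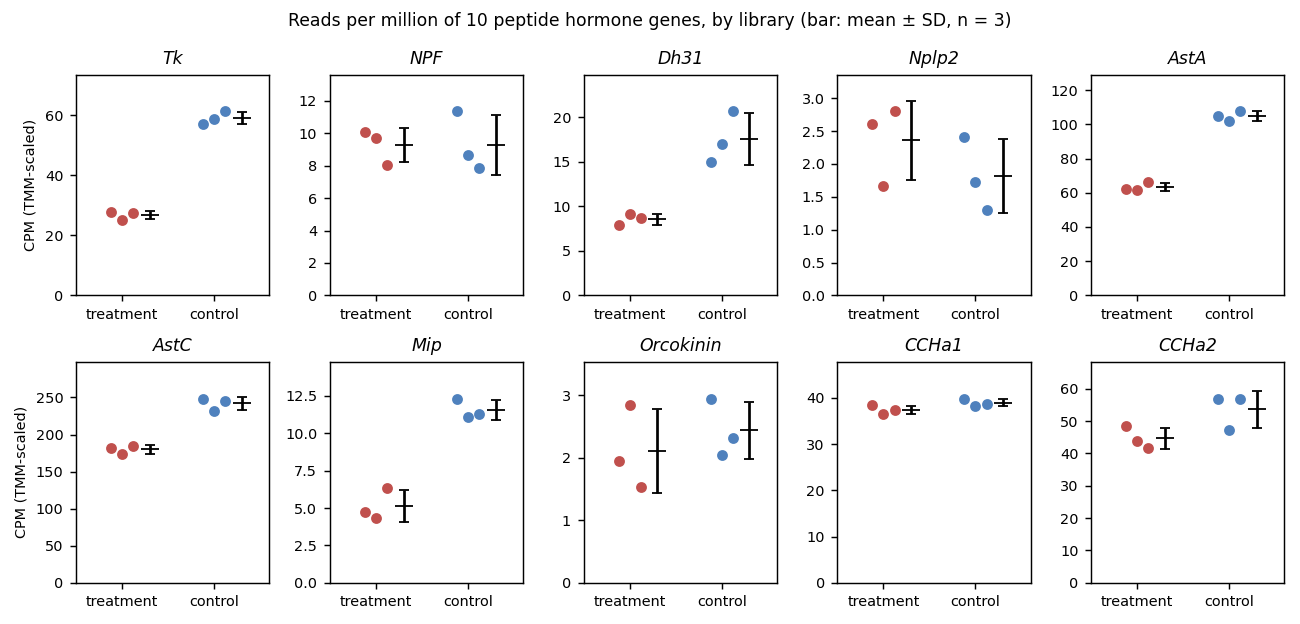
CPM (TMM-scaled, y axis from 0) of each of the 10 peptide hormone genes in the 3 treatment libraries (red) and the 3 control libraries (blue), with the mean ± SD of each set as a black bar. The sets are apart for Tk, Dh31, Mip, AstA and AstC and overlap for the other genes.

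Tk, the tachykinin precursor, whose gut peptides are known to restrain lipid synthesis in enterocytes, had 27.7, 25.1 and 27.6 CPM in the treatment libraries, against 57.2, 58.8 and 61.3 CPM in the control libraries. Every treatment library lay below every control library. The gene (chromosome 3R, 7819897 to 7831194 on the minus strand in the table's unnamed build, 4 exons) fell 2.20-fold (log2 fold change -1.14, SE 0.07, edgeR adjusted p = 1.52e-15). Of all genes tested, 3.81% had a lower log2 fold change. Ect3 overlaps its span on the opposite strand, which had 41 reads over the 6 libraries, beside 3582 for Tk.

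Dh31, the calcitonin-like diuretic hormone that the tachykinin-producing cells are known to make as well, had 7.87, 9.12 and 8.65 CPM in treatment, against 15.001, 17.0 and 20.6 CPM in control. The sets did not overlap, and control was the more widely spread. The fall was 2.10-fold (log2 -1.07, SE 0.11, edgeR adjusted p = 9.25e-10). The gene spans 2L, 8491868 to 8506845, on the minus strand. Its shorter annotated transcript (609 bases against 1295 for the most-read one) was counted 48, 35 and 31 times in treatment, against 55, 89 and 75 times in control, by reads that the longer transcripts may also hold. The protease gene Bace overlaps the span of Dh31, introns included, by 1197 bases on the same strand. Bace was higher in treatment, at 319.7, 343.9 and 315.9 CPM in treatment and 91.2, 92.5 and 90.1 CPM in control.

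NPF encodes neuropeptide F, the fly relative of neuropeptide Y, which cells of the tachykinin population also make. Its levels were 10.1, 9.71 and 8.06 CPM in treatment and 11.3, 8.65 and 7.83 CPM in control. The sets overlapped almost entirely, with a log2 fold change of 0.04 (95% interval -0.22 to 0.30, edgeR adjusted p = 0.836). That interval does not reach the change of Tk. Nplp2, a neuropeptide-like precursor, had 2.60, 1.67 and 2.80 CPM in treatment and 2.41, 1.73 and 1.29 CPM in control. Its interval was wide, from -0.06 to 0.96 around a log2 fold change of 0.45 (edgeR adjusted p = 0.136).

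AstA, the allatostatin A precursor, had 62.3, 61.4 and 66.0 CPM in treatment, against 104.9, 102 and 107.6 CPM in control. The sets were far apart relative to their spread, and the gene (3R, 20586252 to 20590780, minus strand) fell 1.66-fold (log2 -0.73, SE 0.05, edgeR adjusted p = 9.47e-14). AstC, the somatostatin-like allatostatin C precursor, had 181, 173 and 185 CPM in treatment, against 248, 231 and 246 CPM in control. Here too no library crossed over, but the fall was smaller, 1.34-fold (log2 -0.43, SE 0.04, edgeR adjusted p = 1.50e-09). Its annotated transcripts, of 1200 and 1194 bases, had 17499 and 17466 reads over the 6 libraries and were not summed. The gene lies at 2L, 11076165 to 11081397, on the minus strand.

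Mip, the precursor of the myoinhibitory peptides, also called allatostatin B, had 4.75, 4.31 and 6.36 CPM in treatment, against 12.3, 11.1 and 11.3 CPM in control. Its fall of 2.25-fold was the largest point estimate of the 10 (log2 -1.17, SE 0.13, edgeR adjusted p = 4.97e-09), though its interval of -1.44 to -0.90 holds the values of Tk and Dh31. It rests on 44 to 173 reads per library. Orcokinin, the precursor of the orcokinin peptides, had 1.94, 2.84 and 1.53 CPM in treatment and 2.95, 2.05 and 2.32 CPM in control. These sets overlapped, and the interval of its log2 fold change, -0.71 to 0.27, spans changes in either direction (edgeR adjusted p = 0.467).

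CCHa1, a CCHamide precursor, had 38.4, 36.6 and 37.3 CPM in treatment and 39.8, 38.3 and 38.6 CPM in control. Its log2 fold change was -0.05, with a narrow interval of -0.18 to 0.08 (edgeR adjusted p = 0.537), so that a change of the size seen in AstC lies outside it. CCHa2, the CCHamide precursor known to act on the insulin-producing cells of the brain, had 48.4, 43.7 and 41.8 CPM in treatment and 57.0, 47.2 and 56.8 CPM in control. Its sets overlapped through control replicate 2, and the fall was the smallest of the 6 (log2 -0.25, SE 0.07, edgeR adjusted p = 0.00432). CCHa1 and CCHa2 lie on 3R, at 9918215 to 9922557 and 9214781 to 9220912.

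The ranges of the 2 sets did not overlap for 5 of the 10 genes, where 55.2% of all genes tested showed the same. The scaling bears on the smaller values. Scaled by total reads alone, the median of all genes shifted to 0.22, CCHa2 lost its call (log2 -0.05, adjusted p = 0.605), CCHa1 turned to 0.15 (adjusted p = 0.0427) and Nplp2 to 0.66 (adjusted p = 0.0236). The value of CCHa1 lay below the median of all genes under either scaling (-0.05 against 0.01 with TMM), but that gap was not tested. Tk (-0.93), Mip (-0.96), Dh31 (-0.86), AstA (-0.52) and AstC (-0.22) fell under either scaling (edgeR, adjusted p of 0.000104 or less).

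**Figure D2:**
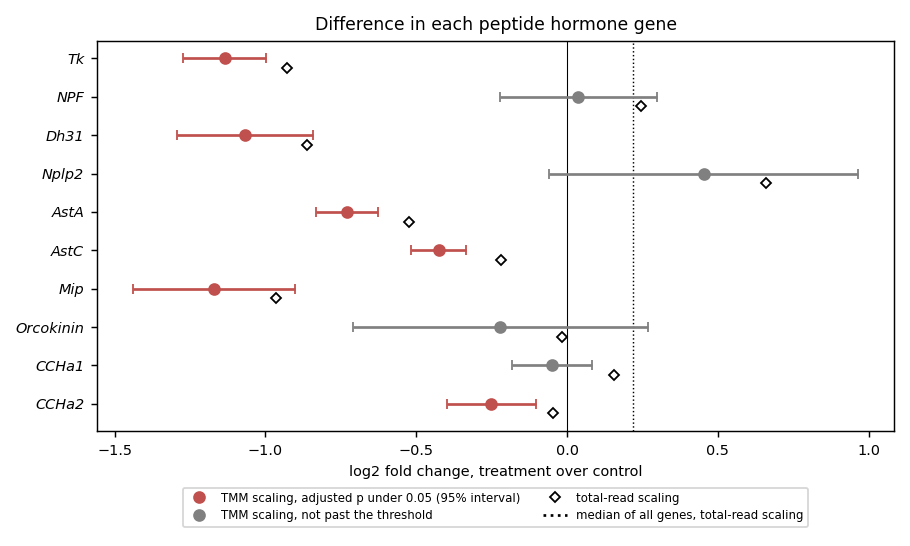
Log2 fold change of each gene, treatment over control, with its 95% interval after TMM scaling (red where the edgeR adjusted p is under 0.05, grey otherwise) and its value with total-read scaling (open diamonds). Tk, Dh31, Mip, AstA and AstC lie below 0 under either scaling, whereas CCHa1 changes side. The dotted line is the median of all genes with total-read scaling, 0.22.

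The authors' deposited table of changed genes lists 6 of the 10, the same 6 that fell here. The log2 fold changes in the authors' deposited table are -1.14 for Tk, -1.10 for Mip, -1.01 for Dh31, -0.74 for AstA, -0.43 for AstC and -0.31 for CCHa2. It is computed from the same libraries.

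Per length, AstC was the most abundant of the 10 in either set, at 149.9 ± 4.94 RPKM in treatment and 202 ± 7.60 RPKM in control. In treatment AstA (43.7), CCHa1 (43.1), CCHa2 (38.5), Tk (16.8), NPF (16.3), Dh31 (6.60), Nplp2 (5.15), Mip (3.69) and Orcokinin (3.56 RPKM) followed. In control the order was AstA (72.5), CCHa2 (46.2), CCHa1 (44.8), Tk (37.0), NPF (16.3), Dh31 (13.5), Mip (8.31), Orcokinin (4.12) and Nplp2 (3.96 RPKM). Neighbours whose libraries overlapped were AstA and CCHa1, Tk and NPF, and the last 4 genes in a chain in treatment, and CCHa2 and CCHa1, NPF and Dh31, and Orcokinin and Nplp2 in control. AstA thus overlapped CCHa1, and Tk overlapped NPF, in treatment, whereas AstA stood above CCHa1 and Tk above NPF in control.

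The summed level of the 10 genes was 334, 318 and 330.2 RPKM in the treatment libraries, against 461, 429 and 456 RPKM in the control libraries. Treatment stood at 0.73 times the control mean, with no overlap (log2 difference -0.45, and -0.25 with total-read scaling). An exact two-sided permutation test over 3 against 3 libraries gave p = 0.10, the smallest it can give. The same limit holds for every share and ratio that follows, and none of them can pass a threshold of 0.05.

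Shares of that sum do not depend on how libraries are scaled to each other, but they do depend on transcript length and on how transcripts of a locus are counted. AstC held 45.3%, 45.4% and 46.7% in treatment and 44.9%, 45.0% and 45.0% in control. Tk took a smaller one, 5.21%, 4.94% and 5.23% in treatment, against 7.78%, 8.59% and 8.43% in control. AstA likewise held 12.9%, 13.3% and 13.8% in treatment, against 15.7%, 16.5% and 16.3% in control. CCHa1 took a larger share, 13.2%, 13.2% and 13.02% in treatment, against 9.95%, 10.3% and 9.77% in control. The share of AstC differed by 0.843 percentage points, by 2.70 without division by length, by 0.272 with the transcripts of a locus summed, and by 0.402 without treatment replicate 3. With transcripts summed, the difference was 1.77 points for CCHa1 (3.17 otherwise), -1.91 for Tk (-3.14), -1.78 for AstA (-2.82) and 2.20 for CCHa2 (1.46). Summing can count the same reads again, as the AstC transcripts had 17499 and 17466 reads and those of CCHa2 4094, 3863 and 3863. The summed counts were divided by the length of the most-read transcript only. The sets did not overlap for 8 of the 10 shares, those of NPF and Orcokinin being the exceptions (adjusted over the 10 shares, exact permutation p = 0.125 for the 8, 0.222 for NPF and 0.70 for Orcokinin). For Nplp2 the sets were barely apart, with 1.144% in treatment replicate 2, on 17 reads, and 1.142% in control replicate 1. The shares of a library add up to a fixed total, so a smaller share of some genes raises the rest. They are not separate results. AstC and CCHa2 held larger shares although both fell in level. CCHa1 did too, while its level did not pass (log2 -0.05, edgeR adjusted p = 0.537).

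**Figure D3:**
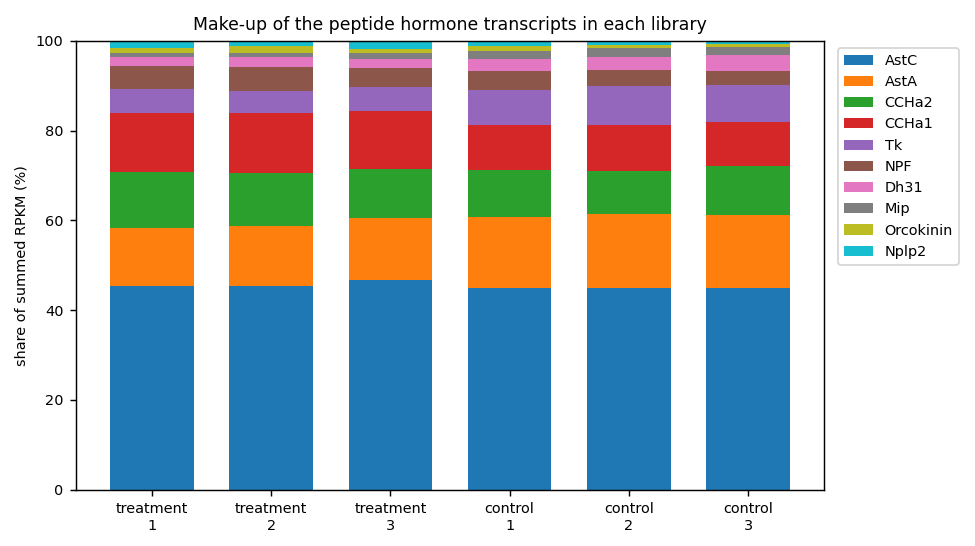
Share of each gene in the summed RPKM of the 10 peptide hormone genes (y axis, percent), with 1 bar per library, the 3 treatment libraries on the left and the 3 control libraries on the right. AstC takes between 44.9% and 46.7% in every library, and the bands of Tk and AstA are thinner in treatment.

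Ratios between genes known to share a cell population or a family were added after the values had been seen. The log2 ratio of NPF to Tk was 0.02, 0.11 and -0.29 in treatment, against -0.85, -1.28 and -1.48 in control, a difference of 1.15. The log2 ratio of Dh31 to Tk was -1.52, -1.16 and -1.37 in treatment and -1.63, -1.49 and -1.27 in control, and the sets overlapped (difference 0.11, exact permutation p = 0.50). The log2 ratio of AstC to AstA was 1.78 ± 0.03 in treatment and 1.47 ± 0.03 in control, and that of CCHa1 to CCHa2 was 0.17 ± 0.09 in treatment and -0.04 ± 0.14 in control (SD, n = 3). Adjusted over the 4 ratios, the exact permutation p was 0.20 for NPF to Tk and for AstC to AstA and 0.267 for CCHa1 to CCHa2.

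**Figure D4:**
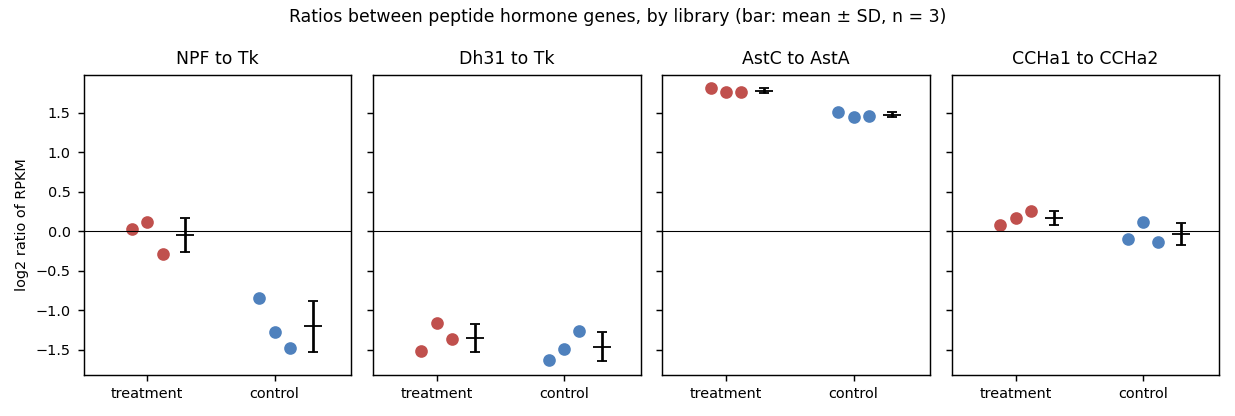
Log2 ratio of RPKM between 4 pairs of peptide hormone genes in each treatment library (red) and control library (blue), with mean ± SD as a black bar. The sets are apart for NPF to Tk and for AstC to AstA and overlap for Dh31 to Tk and for CCHa1 to CCHa2.

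Genes that mark the enteroendocrine cells were also measured. Of 9 such genes, 5 had enough reads to test, of which 2 rose and 0 fell, beside 25.0% and 24.1% of all genes tested. pros, which encodes Prospero, was counted 158, 70 and 90 times in treatment libraries, against 74, 100 and 109 times in control libraries, or 7.52 ± 0.611 against 6.81 ± 0.539 CPM (log2 0.16, SE 0.13, edgeR adjusted p = 0.328; with total-read scaling 0.36, adjusted p = 0.0168). The proneural gene sc rose 1.90-fold, and the homeobox gene Ptx1 rose 1.14-fold, a call lost with DESeq2 (adjusted p = 0.0597) and, in edgeR, without treatment replicate 1 (0.0702) or 3 (0.066) or control replicate 2 (0.0879). The summed hormone level relative to pros, on the log2 scale, was 8.14, 8.30 and 8.20 in treatment, against 8.89, 8.83 and 8.71 in control. It was lower by 0.60 on average without overlap (exact permutation p = 0.10, the smallest possible).

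Genes of peptide processing and release were divided, 2 of 14 higher and 4 lower, with a median of -0.14. Of all genes tested, 25.0% were higher and 24.1% lower. With total-read scaling the balance turned, to 4 higher and 3 lower. amon, the prohormone convertase that cuts precursors at basic residues, was counted 108, 58 and 61 times in treatment libraries, against 106, 136 and 110 times in control libraries, and fell 1.56-fold (log2 -0.64, SE 0.14). Its helper 7B2 was at -0.04, and svr, the carboxypeptidase that trims the cut ends, at -0.04 (0.16 with total-read scaling, edgeR adjusted p = 0.0115). Of the enzymes that amidate peptides, Phm rose (log2 0.43, SE 0.05) while Pal2 fell (log2 -0.34, SE 0.08, and -0.13 with total-read scaling, edgeR adjusted p = 0.169). Pal1 did not pass (log2 -0.21, SE 0.11). The dense-core vesicle gene IA-2 (-0.43) and the vesicle GTPase gene Rab3 (-0.70) fell, and the furin gene Fur1 (0.35) rose.

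Most receptors of these peptides had few reads in this tissue, AstA-R2 being the exception. Of 11 receptor genes, 5 could be tested, of which 3 fell and 0 rose, beside 24.1% and 25.0% of all genes tested. The galanin-type receptor gene AstA-R2 was the best measured, at 17.0 against 24.2 CPM (log2 -0.51, SE 0.08, edgeR adjusted p = 5.05e-06). TkR99D was counted 21, 13 and 7 times in treatment, against 19, 27 and 30 times in control (log2 -0.89, SE 0.29, edgeR adjusted p = 0.0106), a call lost with DESeq2 (0.0769) and, in edgeR, without treatment replicate 3 (0.0684). Dh31-R was counted 17, 13 and 11 times in treatment, against 19, 31 and 24 times in control (log2 -0.84, SE 0.28, edgeR adjusted p = 0.0126), a call lost with DESeq2 (0.104) and, in edgeR, without treatment replicate 1 (0.0916) or control replicate 2 (0.0608). NPFR (0.57, SE 0.26) and SPR, which responds to Mip peptides (0.43, SE 0.27), did not pass except with total-read scaling (edgeR adjusted p = 0.0111 and 0.0378). AstA-R1, AstC-R1, AstC-R2, CCHa1-R and CCHa2-R had at most 12 reads in any library, and TkR86C was listed at 0 in all 6.

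Among 37 other peptide precursor genes, 7 could be tested, of which 3 rose and 0 fell, beside 25.0% and 24.1% of all genes tested. Burs, a bursicon subunit also known from gut endocrine cells, was at 76.9 against 63.3 CPM (log2 0.27, SE 0.06, edgeR adjusted p = 0.00036). ITP, the ion transport peptide gene, rose by 0.53 (SE 0.09), and the insulin-like gene Ilp3 by 0.57 (SE 0.09). Of the 34 in the table, 11 were listed at 0 in all 6 libraries, Ilp2 and Ilp5 among them, while Ilp3, which brain insulin-producing cells also make, had 125 to 316 reads per library.

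**Figure D5:**
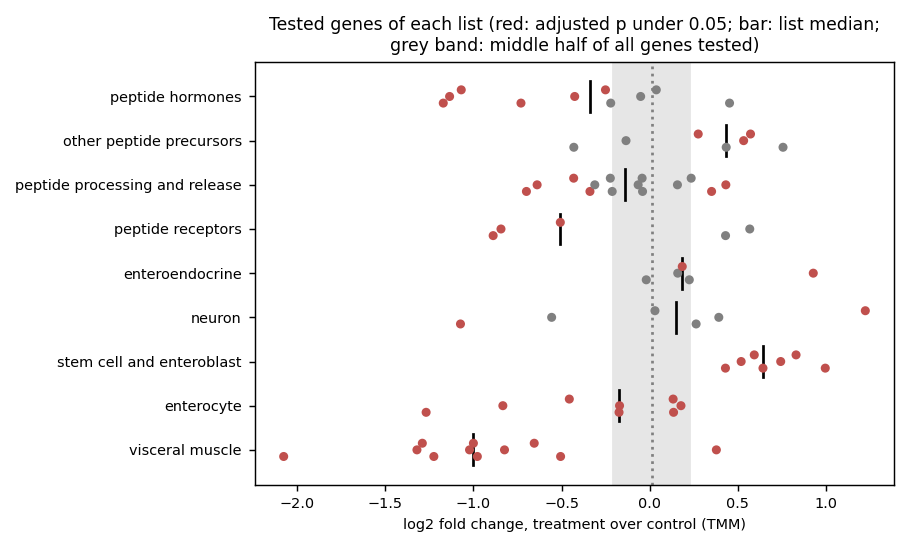
Log2 fold change, treatment over control after TMM scaling, of every tested gene of 9 lists (1 point per gene, red where the edgeR adjusted p is under 0.05), with each list's median as a black bar and the span between the quartiles of all genes tested (-0.21 and 0.23) as a grey band. The median of the peptide hormones is -0.34 (10 genes), and that of the other peptide precursors 0.43 (7 tested of 37, with 4 of the 7 not called).

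Markers of other cell types were set beside these values, and their part in the hormone differences was not tested. For the counts below, 25.0% of all genes tested were higher and 24.1% lower. Of 11 neuron markers in the files, 6 could be tested, 1 higher (elav) and 1 lower (cpx). Syn, a synaptic vesicle gene, was counted 78 to 164 times per library, a range like that of pros. Its level was 7.91 ± 0.402 CPM in treatment and 6.72 ± 1.06 CPM in control, without overlap. That difference did not pass (log2 0.26, SE 0.13, edgeR adjusted p = 0.106). The summed level of the neuron markers was 15.9 to 18.8 CPM in treatment and 14.995 to 18.3 CPM in control, and VGlut was listed at 0. Of 11 markers of visceral muscle, 10 were lower and 1 higher (summed level 1053 to 1070.3 CPM in treatment, 2046 to 2174 CPM in control). Stem cell and enteroblast markers rose in 7 of 7 (182 to 189 CPM in treatment, 118 to 119 CPM in control). Enterocyte markers, 5 lower and 3 higher of 8, summed to 9235 to 10159 CPM in treatment and 12896 to 13549 CPM in control. Digestive enzyme genes make up most of that sum, led by Jon65Aiv (4457 CPM in treatment, 6114 CPM in control). The 3 higher were nub (171 against 152 CPM), mex1 (455 against 415 CPM) and betaTry (675 against 616 CPM). Mitochondrial transcripts took 7.66% to 10.1% of reads in treatment and 6.32% to 7.03% in control.

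Over the 6 libraries, the genes whose log2 CPM followed Tk most closely were CG15253, the muscle myosin gene Mhc and ome (Pearson r of 0.9995, 0.9993 and 0.9991). For AstC they were wit, MtnC and Inx2 (0.9995, 0.9994 and 0.998). These coefficients describe 6 points in 2 sets, and 260 genes had an r above 0.99 with Tk.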

How the data were processed

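The authors deposited raw read counts per transcript for 6 libraries, per the file headers; the headers name no aligner, genome build or strand setting. DESeq is named in the submitters' processing notes. The authors' deposited table also gives log2 fold changes and adjusted p-values for changed genes, per the file headers. After 145 predicted transcripts were left out, each of 13822 loci was represented by its most-read transcript, and 6 loci with a symbol already taken were dropped. Symbols came from RefSeq by gene ID for 12825 loci. Counts were tested in R 4.3.3 with edgeR 4.0.16 (TMM, filterByExpr with a minimum count of 10, quasi-likelihood test, Benjamini-Hochberg at 0.05 over 8137 genes), with DESeq2 1.42.0 as an alternative. p-values measure the spread between pools of midguts. The procedure was run on simulated counts, with equal dispersion for every gene and fewer changed genes than were called here. That run does not give error rates for these libraries. Likeness used log2(CPM + 0.5). Genes named beside the 10 were up to 3 called genes per list, taken by smallest adjusted p, pros, amon, Phm, Pal2, svr and the receptors. 7B2, Rab3, Pal1, Syn, VGlut, Ilp2, Ilp5, nub, mex1, betaTry, Bace and Ect3 were added after their values were seen. Members and lists were chosen with earlier results of these data known.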

Additional observations from a re-analysis of the deposited data

How the results depend on the processing

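The count of 6 lower and 0 higher hormone genes held with DESeq2, RLE scaling, no filter, summed transcripts and without each library in turn; with total reads it was 5 lower and 2 higher. All genes changed numbered 3192 (DESeq2) to 5203 (total reads, 4127 higher and 1076 lower), against 4000 (2038 higher, 1962 lower). Enteroendocrine identity genes changed numbered 1 with DESeq2 and 3 with total reads, and 1 to 2 without single libraries. Receptor genes changed numbered 1 with DESeq2 and 5 with total reads, and 2 to 3 without single libraries. Processing and release genes numbered 4 higher and 3 lower with total reads, against 2 higher and 4 lower. Every share but that of Orcokinin kept its direction in the alternatives run. Summed transcripts, which can count the same reads again, moved the difference of every share except that of Dh31 by over 1.5 times. With total reads CCHa1 reversed to 0.15 and svr to 0.16. The difference in the share of Orcokinin was 0.18 percentage points, and -0.033 (reversed, without treatment replicate 2) to 0.33 without single libraries. The summed level differed by -0.25 (total reads) to -0.51 (CPM) on the log2 scale, against -0.45, and kept its direction in every alternative run. Whether column numbers pair the sets was not settled. The correlation of deviations of same-numbered libraries was -0.05, 0.35 and 0.21, and that of differently numbered ones ran from -0.47 to 0.41. Deviations within a set of 3 libraries depend on each other, so these values cannot decide it. With the number as a block, 4116 genes changed, 6 of them hormone genes. Depth limits Nplp2, Orcokinin and most receptors.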
